A study of Mus musculus with 10 samples.

Results

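CENP-A, encoded by Cenpa, is the histone H3 variant that marks centromeres, the chromosome sites where the spindle attaches. It is described here with 8 genes whose products deposit it, bind it or build the kinetochore on it, 9 genes of the 41813 in the tables. They were found by symbol in RNA-seq gene tables of mouse bone marrow-derived dendritic cells, labelled CD11c+ MHCIIhigh. The set was drawn up to ask whether a lower Cenpa level in activated cells is shared by its deposition factors and partners. The genes were chosen by their expected counts and TPM in that same contrast, so their differences between groups are given as a description and carry no test.

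The 2 groups held 3 libraries each, titled activated and non-activated. According to the series design, all dendritic cells were incubated with LPS, a bacterial ligand of TLR4. The activated cells would then correspond to those pulsed with the ovalbumin peptide OVA323-339, and the non-activated cells to those left unpulsed, before a coculture of 24 h with CD4+ OT-II T cells, which carry a receptor for it. The sample labels instead record LPS stimulation for activated cells and none for non-activated cells, so activated and non-activated are used below as in the titles. The labels do not say whether replicates came from separate animals or cultures, and p-values therefore measure only the spread between these samples. Another 4 samples carried ATAC-seq labels and were not analysed here.

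In dividing cells CENP-A is not placed during DNA replication but after mitosis. The MIS18 complex, which contains the Mis18a product, prepares the centromere, and the chaperone HJURP then loads CENP-A. CENP-C and CENP-N bind the CENP-A nucleosome directly, CENP-T links centromeric DNA to the outer kinetochore, and CENP-B binds a motif in centromeric satellite repeats. CENP-E, a kinesin motor, and CENP-F join the kinetochore at mitosis. Transcripts of many of these genes rise in G2, and differentiated dendritic cells are known to divide little.

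The promoters of 3 of the genes are shown because they differ in what was measured: Cenpa was far lower in activated cells, Cenpf was near the limit of detection, and Hjurp was similar in both groups. Each is the stretch before the first annotated base of the gene (RefSeq, GRCm38.p6), written 5′ to 3′ along the gene's strand, with the CCAAT box (CCAAT or its reverse complement, found in many cell cycle promoters) in capitals. Cenpa lies at chr5:30666636-30666876 (plus strand), Cenpf at chr1:189688108-189688336 (minus strand) and Hjurp at chr1:88277645-88277829 (minus strand).
Cenpa: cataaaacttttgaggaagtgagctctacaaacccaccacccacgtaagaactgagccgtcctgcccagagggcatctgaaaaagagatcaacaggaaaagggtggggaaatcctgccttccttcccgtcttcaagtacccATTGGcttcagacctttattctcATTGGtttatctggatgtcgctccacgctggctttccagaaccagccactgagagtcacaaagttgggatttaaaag
Cenpf: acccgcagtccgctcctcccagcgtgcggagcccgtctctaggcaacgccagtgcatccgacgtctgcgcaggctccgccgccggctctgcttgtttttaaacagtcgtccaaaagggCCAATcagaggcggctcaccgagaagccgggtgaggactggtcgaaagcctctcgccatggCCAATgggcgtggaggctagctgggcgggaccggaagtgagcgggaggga
Hjurp: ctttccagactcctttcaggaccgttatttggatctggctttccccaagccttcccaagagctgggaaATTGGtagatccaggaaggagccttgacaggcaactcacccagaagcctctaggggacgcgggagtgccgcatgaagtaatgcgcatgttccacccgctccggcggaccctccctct
The printed stretches hold 2, 2 and 1 CCAAT boxes and are 48.1%, 65.5% and 57.3% G and C, in the order Cenpa, Cenpf, Hjurp.

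In the RefSeq window of 250 bases before and 50 bases from the annotated start, found for all 9 genes, a CCAAT box occurred in 6 of them, against 37.4% of 32851 mouse windows of the same length. The CHR motif (TTTGAA, searched on both strands), which recruits the complexes that repress G2 genes in resting cells, occurred in 4 of the 9, against 17.9% of all windows. Those 4, Cenpa, Cenpf, Cenpn and Hjurp, held both motifs, as did 6.95% of all windows. The start of this window is that of 1 transcript. For Cenpa, Cenpf and Hjurp it lies inside the outer bounds of the gene, at which the printed stretches end. Counted from this start, the CHR letters began at base 17 in Cenpa, base 3 in Cenpf and base 20 in Hjurp. The printed stretches therefore hold no CHR letters. A match is a description of letters and not evidence that a factor binds.

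Library totals ran from 21338012 to 27404937 expected counts. Markers of the labelled cell type were present in every library: all 12 dendritic cell markers listed were at 5.67 TPM or above (transcript abundance scaled for length and depth), with Cd74 averaging 9372 TPM in activated and 10728 TPM in non-activated cells. Both replicate 1 libraries stood apart. Counts of replicate 1 differed from those of its group by a chi-square per degree of freedom of 41.8 to 70.8, against 18.1 between activated replicates 2 and 3 and 14.9 between non-activated replicates 2 and 3. The T cell receptor constant gene Trac stood at 41160 TPM in activated replicate 1 and 41069 TPM in non-activated replicate 1, against 14.4 to 160 TPM in the other 4 libraries. Trbc2 followed it, at 297 and 292 TPM against 1.51 to 5.57 TPM. The signal-chain genes were far lower. By count, Cd3e was highest in activated replicate 1, at 51 against 4 to 10 in the other 5 libraries. There Cd3g had 27 counts against 0 to 2, and Cd3d 22 against 0 to 8. Non-activated replicate 1 had 4 counts of Cd3e, 2 of Cd3g and 8 of Cd3d. By TPM, Cd3d was highest in activated replicate 2, at 1.94 against 0.81 in activated replicate 1. For the 9 genes, the named genes of the pathway lists, the neighbours of Cenpa and the called marker genes, a call that changes without both replicate 1 libraries is given with its value.

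Cenpa was the most abundant of the 9 transcripts in non-activated cells and the third in activated cells. It stood at 17.3, 12.9 and 13.6 TPM in activated replicates 1 to 3, against 141, 135 and 151 TPM in non-activated replicates 1 to 3. All activated libraries were below all non-activated ones, and the highest activated value was far under the lowest non-activated value. The expected counts behind these levels were 368, 225 and 264 in activated and 3118, 2619.5 and 2916 in non-activated libraries, so counting error is small beside the difference. On counts scaled to library size (CPM, with TMM factors), Cenpa averaged 11.8 ± 1.61 in activated and 116 ± 4.84 in non-activated cells (SD, n = 3). Its log2 fold change of -3.29 ± 0.11 (SE) ranked 17 from the lowest of 13946 genes tested, a level 9.76-fold lower in activated cells. Without both replicate 1 libraries it was -3.41. In bulk RNA, fewer cells with the transcript and less transcript per cell cannot be told apart.

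**Figure D1:**
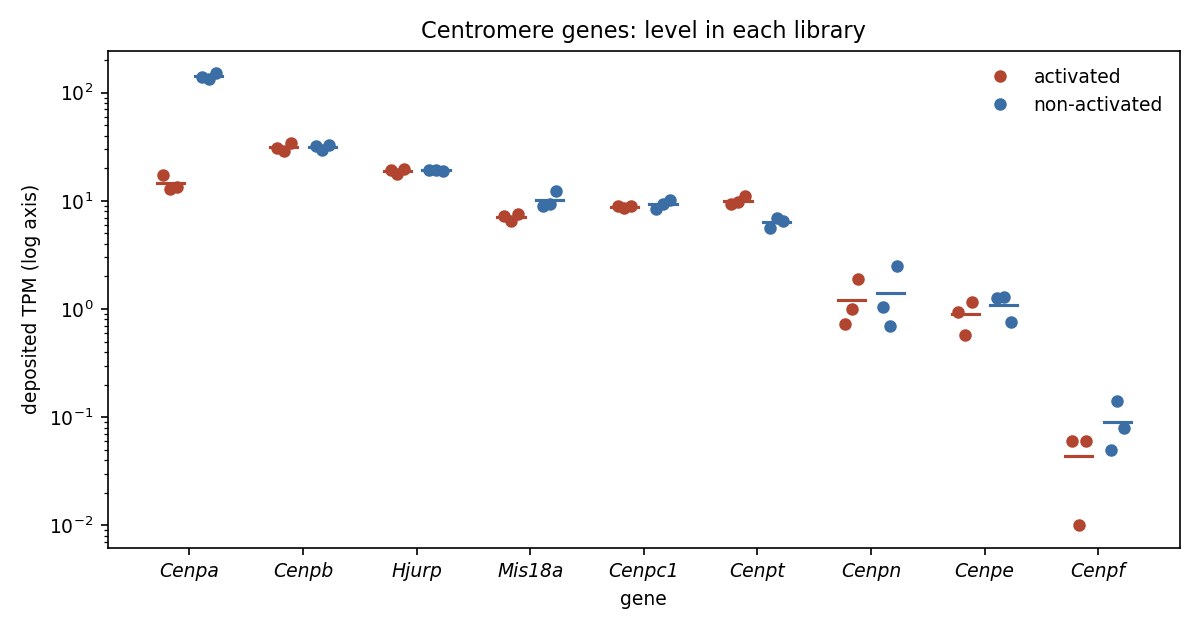
Deposited TPM (log axis) of the 9 genes in each of 6 libraries, activated left of non-activated; points are libraries and bars are means of 3. Cenpa sits at 12.9 to 17.3 TPM in activated and 135 to 151 TPM in non-activated libraries, while for the other genes the groups overlap or, for Mis18a and Cenpt, lie a short distance apart.

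The gene is at chr5:30666877-30674837 (GRCm38.p6), with 10 transcripts in the deposited tables. The abundance-weighted transcript length in the tables, which moves when the mix of transcripts changes, averaged 1374 ± 61.3 bases in activated and 1381 ± 9.81 bases in non-activated cells (SD, n = 3). The difference in level was therefore about as large per length as by count, at -3.21 ± 0.12 on log2(TPM + 1). The nearest protein-coding genes on either side were also measured. Slc35f6, a solute carrier gene that ends 7147 bases before Cenpa, stood at 96.8 ± 11.2 CPM in activated cells, against 123 ± 12.5 CPM in non-activated cells (SD, n = 3), and was not called (edgeR adjusted p = 0.0506). Dpysl5, a member of the dihydropyrimidinase-like family that starts 36726 bases after Cenpa, fell to 4.24 ± 2.45 CPM in activated cells, against 28.4 ± 4.89 CPM in non-activated cells (SD, n = 3; log2 -2.72 ± 0.35 SE, edgeR adjusted p = 0.000882).

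The deposition factors did not show a difference of this size. Hjurp, the CENP-A chaperone, stood at 19.4, 17.7 and 19.6 TPM in activated libraries, against 19.1, 19.5 and 18.8 TPM in non-activated ones. The groups overlapped, and its log2 fold change by counts was 0.09 ± 0.08 (SE). Reads in the 3434 bases that Hjurp shares with Mroh2a cannot be told apart by strand, but Mroh2a stood at 2.04 CPM in activated cells, against 2.58 CPM in non-activated cells, against 50.1 and 47.2 CPM for Hjurp. Mis18a, the licensing factor, was at 7.26, 6.56 and 7.5 TPM in activated libraries, against 8.97, 9.38 and 12.3 TPM in non-activated ones. All activated libraries were below all non-activated ones, by a log2 fold change of -0.46 ± 0.15 (SE). With the replicate number added as a block it was -0.45.

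Cenpb, which encodes the satellite-binding protein, stood at 31.0, 29.2 and 34.6 TPM in activated libraries, against 32.4, 29.8 and 33.0 TPM in non-activated ones. Cenpc1 stood at 9.02, 8.50 and 8.87 TPM in activated libraries, against 8.45, 9.27 and 10.1 TPM in non-activated ones. The groups overlapped for both, with log2 fold changes of 0.00 ± 0.08 for Cenpb and -0.01 ± 0.09 for Cenpc1 (SE). Cenpn, the other direct reader of the CENP-A nucleosome, was low, with 24.57, 22.02 and 37 expected counts in activated and 35.07, 20 and 49 in non-activated libraries. Its groups overlapped and its log2 fold change of -0.24 ± 0.39 (SE) was imprecise. It lies wholly within the span of Cmc2, which averaged 14.9 CPM in activated cells, against 20.6 CPM in non-activated cells, so its count is uncertain.

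Cenpt depended on the unit. It stood at 9.36, 9.84 and 10.97 TPM in activated libraries, against 5.56, 6.91 and 6.50 TPM in non-activated ones, and these groups did not overlap. By expected count the libraries overlapped, at 219, 149 and 249 in activated and 178, 160 and 184 in non-activated. The log2 fold change was 0.29 ± 0.16 (SE) by counts and 0.60 ± 0.14 (SE) on log2(TPM + 1). The abundance-weighted transcript length was 1419.6, 1262.3 and 1587.9 bases in activated libraries, against 1906.9, 1613.1 and 1955.5 bases in non-activated ones. All activated lengths were shorter, and TPM divides by length.

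The mitotic kinetochore proteins were scarcely measured. Cenpe had 46.0, 28.0 and 43.0 expected counts in activated libraries, against 43.0, 53.0 and 44.0 in non-activated ones, with overlapping groups and a log2 fold change of -0.22 ± 0.27 (SE). Cenpf had 7.61, 2.00 and 6.76 expected counts in activated libraries, against 11, 15.01 and 14.3 in non-activated ones. All activated counts were lower, and the log2 fold change was -1.19 ± 0.50 (SE). Cenpf reached the filter level only in the non-activated libraries (0 of 3 activated, 3 of 3 non-activated), so it entered the fit only through the group where it was higher. On log2(TPM + 1), where its level is close to 0, the difference was -0.06 ± 0.10.

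All 9 genes passed the filter. By the fit over all genes, 1 of the 9 was called lower and 0 higher at an adjusted p of 0.05, where 27.6% of all tested genes were called, 11.7% lower and 15.9% higher. In 3 of the 9, Cenpa, Cenpf and Mis18a, all activated libraries had a lower CPM than all non-activated ones, as did 20.7% of all tested genes. Since the contrast chose the genes, nothing is read from these shares. The median log2 fold change of the 9 was -0.22, against 0.01 over all tested genes.

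**Figure D2:**
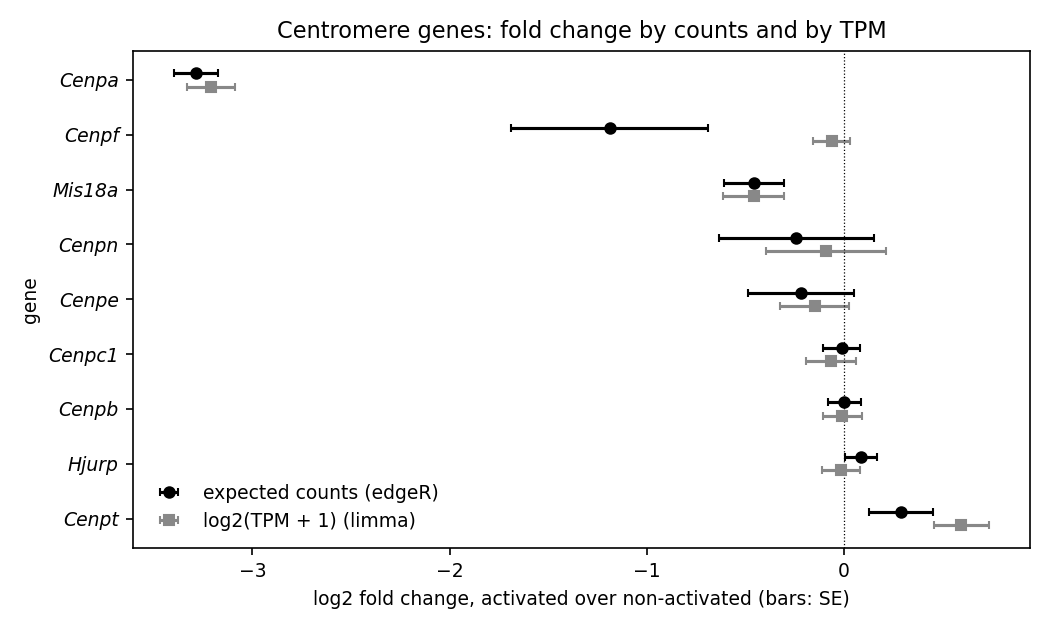
Log2 fold change of activated over non-activated cells for the 9 genes, from expected counts (black circles, edgeR) and from log2(TPM + 1) (grey squares, limma); bars are SE. Cenpa lies at -3.29 by counts, the remaining genes between -1.19 and 0.29, and Cenpt shifts to 0.60 by TPM.

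Per length, the order of the genes in activated cells was Cenpb, Hjurp, Cenpa, Cenpt, Cenpc1, Mis18a, Cenpn, Cenpe and Cenpf, from 31.6 ± 2.76 to 0.0433 ± 0.0289 TPM (SD, n = 3). In non-activated cells it was Cenpa, Cenpb, Hjurp, Mis18a, Cenpc1, Cenpt, Cenpn, Cenpe and Cenpf, from 142 ± 8.08 to 0.0900 ± 0.0458 TPM. Neighbours in the order whose libraries overlapped were Cenpn and Cenpe in both groups, and Mis18a and Cenpc1 in non-activated cells. Cenpa took 18.2%, 14.9% and 13.8% of the summed TPM of the 9 genes in activated libraries, against 64.7%, 63.7% and 64.2% in non-activated ones. The sum of the other 8 was 77.8, 73.4 and 84.7 TPM in activated libraries, against 76.8, 76.9 and 84.0 TPM in non-activated ones, so it overlapped between groups.

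The balance between CENP-A and its partners at the RNA level therefore differed. There were 0.889, 0.728 and 0.691 Cenpa transcripts per Hjurp transcript (ratio of TPM) in activated libraries, against 7.37, 6.93 and 8.05 in non-activated ones. Relative to Mis18a the ratio was 2.05 ± 0.295 in activated and 14.1 ± 1.71 in non-activated cells, and relative to Cenpc1 1.65 ± 0.227 and 15.4 ± 1.14 (SD, n = 3). Against H3f3a, which encodes the general replication-independent H3 variant, it was 0.0322 ± 0.00383 in activated and 0.340 ± 0.000707 in non-activated cells. In each of these ratios the groups lay apart. The numerator is shared, so the ratios are not independent of one another.

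**Figure D3:**
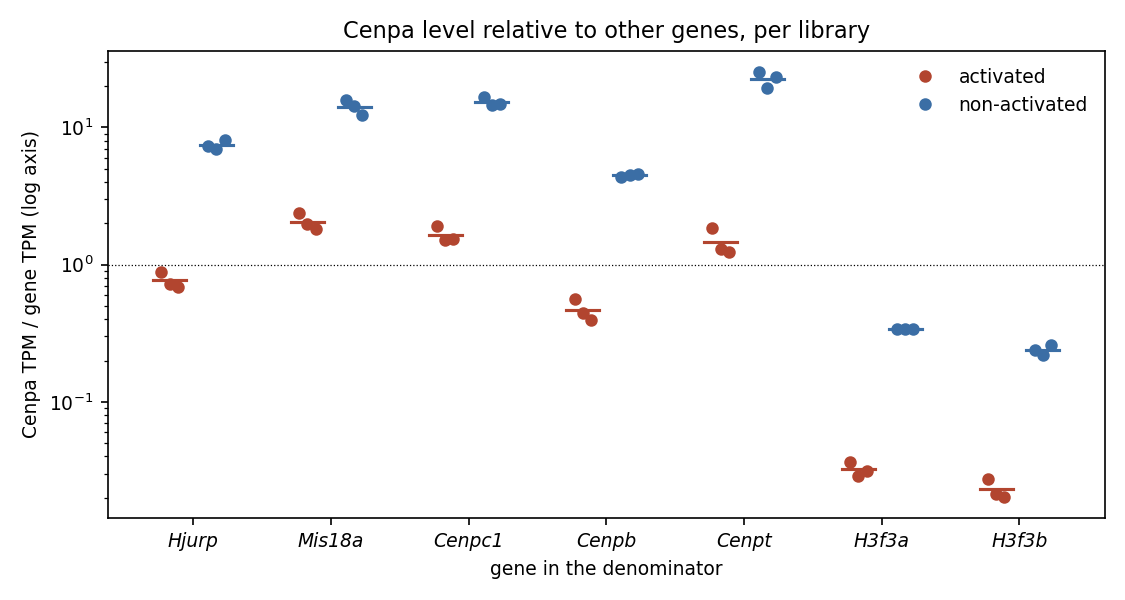
Ratio of Cenpa TPM to the TPM of 7 other genes in each library (log axis), activated left of non-activated; points are libraries, bars are means of 3 and the dotted line marks equal levels. The ratio to Hjurp lies between 0.691 and 0.889 in activated and between 6.93 and 8.05 in non-activated libraries.

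Genes whose pattern over the 6 libraries was most like that of Cenpa were taken by the smallest root mean square difference in log2 CPM. A prior count of 2 was added before the log, and each gene was centred on its own mean. They were Mical2 (difference 0.232), which encodes an actin-oxidising enzyme, the IL-18 receptor gene Il18r1 (0.281), Hepacam2 (0.286), Ppl (0.304), which encodes the cytolinker periplakin, and Pdk4 (0.364), which encodes a pyruvate dehydrogenase kinase. None of them is among the centromere, mitosis or replication genes listed here. The measure rests largely on the size of the group difference. No tested gene of those lists fell as far as Cenpa, so nothing is read from their absence. Mical2 averaged 4.83 CPM in activated cells, against 40.7 CPM in non-activated cells, and Hepacam2 3.03 and 25.8 CPM. Il18r1 and Pdk4 were low, with at most 3.30 and 2.99 expected counts in any activated library. Both reached the filter level in 0 of 3 activated and 3 of 3 non-activated libraries. They thus entered only through the group where they were higher. Their fitted log2 fold changes were -4.24 and -4.02, against -3.29 for Cenpa. The prior count narrows the differences of genes with so few counts. Only Hepacam2 was also among the 5 closest on log2(TPM + 1).

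The other genes of the pathway were taken with G2 and mitosis genes, S phase and replication genes, and other H3 variant and chaperone genes. Together these made 5 lists of 109 genes, called pathway genes here, of which 100 were tested. Of those 100, 15 rose, 12 fell and 73 did not pass (edgeR quasi-likelihood test, adjusted p over all genes of 0.05), beside the 15.9% and 11.7% of all genes. The count of lower genes fell when libraries were left out: it was 3 without non-activated replicate 2, 4 without non-activated replicate 3, 6 without activated replicate 2, 7 without activated replicate 3 or non-activated replicate 1, and 11 without activated replicate 1. Over all genes the lower calls numbered 1061 to 1673 in these fits, against 1632. On the deposited TPM 5 pathway genes were lower, of 1132 lower genes in all. Of the tested genes 9 reached the filter level in every non-activated library but in fewer than 3 activated ones, so they entered mainly through the group where they were higher.

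Of 19 tested CENP-A deposition and other inner kinetochore genes, 2 rose, 2 fell and 15 did not pass, with a median log2 fold change of -0.15. With the replicate block 4 fell. Oip5, the MIS18 complex partner of the Mis18a product, fell to 1.15 ± 0.327 CPM in activated cells, against 2.26 ± 0.171 CPM in non-activated cells (log2 -0.97 ± 0.30 SE, edgeR adjusted p = 0.0426). Cenpk, of the constitutive centromere network, fell to 0.249 against 0.840 CPM, on 12.03, 2.00 and 4.77 expected counts in activated and 23.24, 15.95 and 24 in non-activated libraries. Cenpk reached the filter level in 1 of 3 activated and 3 of 3 non-activated libraries. It thus entered the fit mainly through the group where it was higher. Oip5 kept its call only without activated replicate 3, and Cenpk only without activated replicate 1. Their edgeR adjusted p ran from 0.0399 to 0.118 for Oip5 and from 0.0191 to 0.131 for Cenpk in the 6 fits that left out 1 library each.

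Rbbp4, a histone chaperone shared by many chromatin complexes, rose 1.37-fold (154 ± 17.5 against 112 ± 5.55 CPM) and kept its call in all 6 of those fits. Cenpx rose 1.29-fold, a call kept in the 6 fits only when the library left out was activated replicate 1 or non-activated replicate 2 (0.0206 to 0.118 by edgeR, adjusted). It was also lost without both replicate 1 libraries (0.102). The chaperones Nasp and Npm1 did not pass, at 23.2 against 21.9 CPM and 240 against 278 CPM.

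Of 29 tested outer kinetochore, spindle checkpoint and chromosomal passenger genes, 4 rose, 4 fell and 21 did not pass, with a median of -0.30. The checkpoint kinase gene Ttk rose 2.95-fold (3.04 ± 0.736 against 1.03 ± 0.399 CPM, edgeR adjusted p = 0.0147) and kept its call without any 1 library. Spdl1, Zwint and Mis12 rose 1.32-fold, 1.23-fold and 1.22-fold. Spdl1 kept its call only when activated replicate 3 or non-activated replicate 1 was the library left out (0.0284 to 0.0876 by edgeR, adjusted). For Zwint these were activated replicate 3 and non-activated replicate 2 (0.0271 to 0.115), while Mis12 was not called in any of the 6 fits (0.0540 to 0.148).

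Ndc80, whose product binds microtubules and is recruited by CENP-T, fell to 0.956 ± 0.210 CPM in activated cells, against 2.10 ± 0.187 CPM in non-activated cells (log2 -1.13 ± 0.29 SE). Of the 6 fits, the call held in the one that left out activated replicate 1 (0.0249 to 0.0768 by edgeR, adjusted). The passenger complex gene Cdca8 fell to 4.14 against 6.83 CPM, a call lost without non-activated replicate 2 or 3 (0.0196 to 0.0703). Nsl1 fell to 3.78 against 6.06 CPM and kept its call only without activated replicate 3 (0.0206 to 0.0884). Per length its groups overlapped, at 1.58, 2.27 and 3.14 TPM in activated libraries, against 3.36, 2.73 and 2.24 TPM in non-activated ones. On log2(TPM + 1) its log2 fold change was -0.20 ± 0.21 (SE), with a limma adjusted p of 0.564. Kif18a fell to 0.571 against 1.28 CPM and was not called in any of the 6 fits (0.0508 to 0.138) and with the replicate block (0.0520).

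Of 20 other tested G2 and mitosis genes, 3 rose, 2 fell and 15 did not pass, with a median of -0.42. The proliferation markers moved apart. Mki67, which encodes Ki-67, rose 2.19-fold, at 35.3 ± 5.78 CPM in activated cells, against 16.1 ± 1.15 CPM in non-activated cells (edgeR adjusted p = 0.000472). Top2a, which encodes the mitotic topoisomerase, fell to 8.52 ± 1.42 CPM in activated cells, against 25.6 ± 3.0 CPM in non-activated cells (log2 -1.59 ± 0.15 SE, edgeR adjusted p = 0.000173). Mybl2 rose 3.50-fold and the spindle assembly factor gene Tpx2 2.23-fold. These 4 kept their calls and directions in every alternative run. Kif23 fell to 1.39 against 2.89 CPM, a call that did not survive leaving out activated replicate 3, non-activated replicate 2 or non-activated replicate 3 (0.0195 to 0.0776 by edgeR, adjusted). Leaving out both replicate 1 libraries also ended it (0.0726). By TPM the Kif23 groups overlapped, with a limma adjusted p of 0.151 on log2(TPM + 1). The cyclin and kinase genes of mitosis were low: Ccnb1 averaged 0.624 CPM in activated cells, against 1.13 CPM in non-activated cells, and Cdk1 4.84 and 6.12 CPM.

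Of 23 tested S phase and replication genes, 5 rose, 3 fell and 15 did not pass, with a median of -0.11. Mcm3, a subunit of the replicative helicase, rose 2.32-fold (47.1 ± 6.42 against 20.3 ± 0.305 CPM). Uhrf1, Dut, Mcm5 and Tyms rose 2.26-fold, 1.99-fold, 1.60-fold and 1.47-fold. These 5 kept their calls without any 1 library, but Mcm5 lost it when both replicate 1 libraries were dropped (0.0594 by edgeR, adjusted; range of its alternatives 0.0019 to 0.0594). Tyms lost it on log2(TPM + 1) (limma adjusted p = 0.0718). Other helicase subunits went the other way: Mcm6 fell to 28.9 against 41.6 CPM and Mcm7 to 10.5 against 13.6 CPM. Gmnn, which encodes the licensing inhibitor geminin, fell to 5.36 against 8.22 CPM. The Mcm6 call ended when non-activated replicate 3 was left out (0.0040 to 0.0646 in the 6 fits). Mcm7 kept it only without activated replicate 1 (0.0340 to 0.123), and the Gmnn call ended on leaving out activated replicate 2, non-activated replicate 1 or non-activated replicate 2 (0.0194 to 0.0666). By TPM the Mcm7 groups overlapped, with a limma adjusted p of 0.195 on log2(TPM + 1). Dropping both replicate 1 libraries ended the calls of Gmnn, Mcm7, Ndc80, Nsl1, Oip5, Spdl1, Zwint, Mis12 and Kif18a as well, with edgeR adjusted p from 0.0541 (Ndc80) to 0.238 (Kif18a).

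Among 9 other H3 variant and chaperone genes, 1 rose, 1 fell and 7 did not pass, with a median of 0.13. H3f3a averaged 205 CPM in activated cells, against 187 CPM in non-activated cells, and H3f3b 454 and 408 CPM. Atrx, the chromatin remodeller that works with DAXX, rose 1.53-fold (410 ± 39.9 against 269 ± 18.6 CPM). Ubn1, of the HIRA complex, fell to 99.1 ± 4.69 CPM in activated cells, against 124 ± 0.674 CPM in non-activated cells. Both kept their calls without any 1 library.

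**Figure D4:**
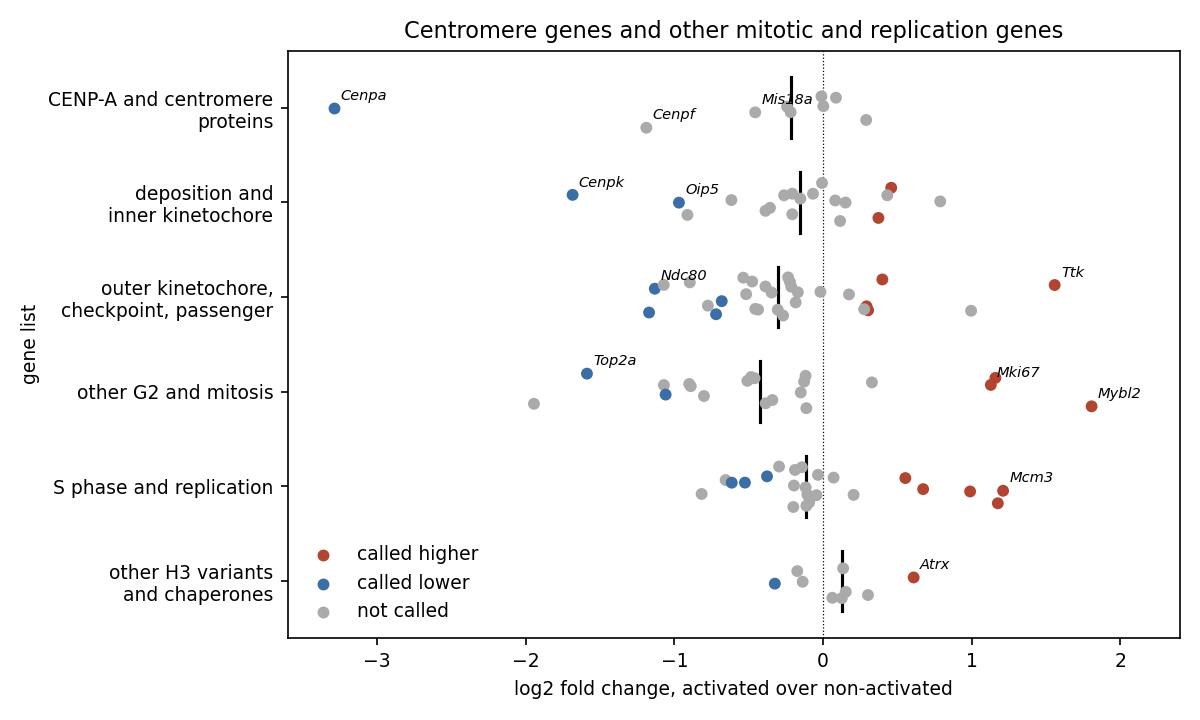
Log2 fold change of activated over non-activated cells for the tested genes of 6 lists; each point is a gene (red, called higher; blue, called lower; grey, not called), and the black bar is the list median. Cenpa, at -3.29, lies below every other gene shown, while each of the other lists holds genes called in both directions.

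Markers of the T cells used in the coculture are given beside these counts. Over all tested genes 15.9% were called higher and 11.7% lower. Of 18 T cell markers 10 were tested, 3 rose (Lck, Zap70 and Cd247), 0 fell and 7 did not pass; without 1 library each, Lck was called in 6 of 6 fits, Zap70 in 3 and Cd247 in 1 (edgeR adjusted p up to 0.113 for Zap70 and 0.135 for Cd247). Leaving out Trac and Trbc2, their summed level was 68.8, 41.4 and 45.3 TPM in activated libraries, against 31.6, 50.1 and 49.2 TPM in non-activated ones, so the groups overlapped. Of 9 activated helper T cell markers 3 were tested, Il2 rose (called in 3 of 6 such fits, edgeR adjusted p up to 0.0781), Icos fell and Tnfrsf4 did not pass; summed levels were 7.49 to 29.1 TPM in activated and 10.7 to 15.0 TPM in non-activated libraries. Cd40lg and Il21 had no counts in the non-activated libraries and averaged 0.640 and 0.153 TPM in activated ones. The part of T cell RNA in the mitosis and replication results was not tested.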

How the data were processed

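In all, 6 RNA-seq libraries, 3 activated and 3 non-activated, were analysed; the labels' protocols give single reads of 60 bases. Per the file headers, the authors deposited RSEM gene tables with expected counts, TPM, FPKM and transcript lengths. Per the submitters' processing notes the build was GRCm38, with an RNA aligner not given in the sources used here. Of 41813 gene IDs, 41597 had a symbol. Coordinates and promoters are RefSeq GRCm38.p6.

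Rounded expected counts entered edgeR 4.0.16 under R 4.3.3 (filterByExpr, 13946 genes; TMM; glmQLFit and glmQLFTest on group; Benjamini-Hochberg over all genes, threshold 0.05). The SE is the log2 fold change divided by the root of F. The deposited TPM was used for levels and, with limma 3.58.1, for alternatives; DESeq2 1.42.0 was another, and the deposited FPKM was not used. Variation between libraries beyond counting error (edgeR common coefficient 16.9%) and not depth limits all but low genes. Whether this variation is biological or technical was not tested.

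Libraries with the same replicate number deviated together from their group means (correlations 0.398, 0.313 and 0.187; other pairs -0.315 to 0.0402). The pairing thus comes from these data, as no label explains the numbers. The block was fitted as an alternative. No 2 replicates agreed within sampling noise (chi-square test over genes). The members and lists were chosen with earlier results of these data known. All 9 members, the called genes of each pathway list with the smallest adjusted p (up to 5 per direction), Mki67, Top2a and the 5 genes most like Cenpa were named by rule; neighbouring, overlapping, marker and other genes given with values were chosen afterwards. Some single-gene results are not reported here.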

Additional observations from a re-analysis of the deposited data

How the results depend on the processing

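The log2 fold change of Cenpa ran from -3.43 to -3.24 when 1 library was left out and from -3.41 to -3.21 in the other alternatives. With the replicate block, 2397 of all genes were called lower instead of 1632, and among the 9 genes 2 instead of 1, the addition being Mis18a; Kif18a lost its call, and no other call of a named pathway gene changed under the block. On log2 of the deposited TPM with a pseudocount of 1 or 0.1, 1 member (Cenpt) was called higher instead of 0, and 5 pathway genes were lower instead of 12; over all genes, a pseudocount of 1 gave 1550 higher and 1132 lower, against 2216 and 1632. On both TPM scales calls were lost for Cdca8, Cenpk, Cenpx, Kif18a, Kif23, Mcm7, Mis12, Nsl1, Oip5, Spdl1, Tyms and Zwint. With a pseudocount of 1 their limma adjusted p ran from 0.0548 (Cdca8) to 0.564 (Nsl1). Mis12 also lost its call with RLE or upper quartile scaling in place of TMM (edgeR adjusted p = 0.05245 and 0.05915). Without the filter on low counts, Mis12 (0.111), Kif18a (0.0629), Mcm7 (0.0660) and Zwint lost theirs by edgeR. With DESeq2, Mis12 (DESeq2 adjusted p = 0.07015) and Kif18a (0.0532) did. No other named pathway gene changed its call in these fits. Nothing is read from the calls of the 9 genes, which this contrast chose. Leaving out 1 library gave 3 to 11 lower pathway genes, and 1061 to 1673 lower genes over the whole table against 1632 in the fit of all libraries (1061 without non-activated replicate 2). Leaving out both replicate 1 libraries, added after seeing the data, gave 8 lower pathway genes. Of 27 named pathway genes 13 kept their calls in all 6 fits that left out 1 library; the cause of the losses was not tested. None of the 27 changed sign. Among the 9, values near 0 did: Cenpn was 0.10 without non-activated replicate 3, Cenpc1 0.02 without that library, Hjurp -0.01 on log2(TPM + 1), and Cenpb down to -0.05 without activated replicate 3. The genes most like Cenpa were not refitted with libraries left out one by one. Cenpf, Cenpe, Cenpn, Cenpk, Kif18a, Ndc80, Oip5 and Kif23 rest on few counts, and depth limits what can be said of them. Kif18a had 12.35, 15 and 13 expected counts in activated and 39.83, 24.66 and 31.23 in non-activated libraries. Ndc80 had 31.4, 20 and 18 against 53.99, 55 and 48. Oip5 had 22, 24 and 36 against 62.84, 55 and 50.6, and Kif23 35.02, 36.04 and 27 against 68, 77 and 70.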

Other observations

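Markers of cells other than dendritic and T cells differed between groups in part: summed levels did not overlap for B cell markers, higher in activated cells, or for mast cell and basophil markers, lower in activated cells. In every library 4 of the 6 B cell markers and 5 of the 7 mast cell and basophil markers were below 1 TPM. These sums therefore rest on few genes and not on the lists as a whole. Beside the counts of called markers below, 15.9% of all tested genes were called higher and 11.7% lower. Of 10 macrophage and monocyte markers 1 rose (Mertk), 2 fell and 7 did not pass; 1 of those that fell, Fcgr1, was not called without both replicate 1 libraries (edgeR adjusted p = 0.105) and was called in 2 of the 6 fits without 1 library. Summed over the list, levels were 1066 to 1435 TPM in activated and 1256 to 1495 TPM in non-activated libraries. Of the 6 B cell markers 2 were tested and Cd79b rose, with summed levels of 3.37 to 4.31 TPM in activated and 0.460 to 0.880 TPM in non-activated libraries. The NK cell list held 1 tested gene, Klrk1, which did not pass, and summed to 5.63 to 15.4 TPM in activated and 13.7 to 26.1 TPM in non-activated libraries; Klrb1c had no counts in any library. Neutrophil markers summed to 1.29 to 2.46 TPM in activated and 1.78 to 2.53 TPM in non-activated libraries, with 1 tested and none called. Of the 7 mast cell and basophil markers Gata2 alone was tested and fell (5.17 against 16.95 CPM), and Tpsb2 and Cma1 had no counts; the list summed to 4.87 to 9.43 TPM in activated and 15.0 to 18.0 TPM in non-activated libraries. Of 12 dendritic cell markers 6 rose, 0 fell and 6 did not pass; Ciita was called in 1 of the 6 fits without 1 library (edgeR adjusted p up to 0.0972) and the other 5 in all 6 of them. Summed dendritic cell marker levels were 17971.5 to 25067.9 TPM in activated and 21236.7 to 26984.8 TPM in non-activated libraries.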
